A study of Mus musculus with 8 samples.

Results

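Abca1, Abca2, Abca3, Abca5, Abca6, Abca8a, Abca8b and Abca9 are 8 of the 33696 genes counted in single nuclei of the mouse optic nerve (ON). They were taken by symbol as ABCA lipid transporters. The rule used no measured value, but it was written with earlier results of these data known. All 8 were found in every library. In oligodendrocytes (OLs) Abca8a, a transporter of the chromosome 11 group, was lower in the libraries labelled cKO, at 15.1 ± 3.16 CPM (UMIs of the gene scaled to a common library total) against 39.5 ± 4.40 in the control libraries (SD, n = 4 each), and none of the other 7 members passed the test there. Under control conditions Abca2 and Abca8b stood high in OLs, Abca1 in border macrophages and astrocytes, and Abca9 in microglia.

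Nuclei came from ONs of female mice on a C57BL/6J background at P120, with 6 ONs from 3 mice pooled per library. The 4 control libraries (replicates 1 to 4) carried both floxed Piezo2 alleles (Piezo2f/f) and no cre. The 4 others (replicates 10 to 13) were Olig2-cre;Piezo2f/f, labelled cKO. Olig2-cre is inserted in Olig2, so these mice are also heterozygous for Olig2, and the effect of that cannot be told apart from the effect of the Piezo2 allele. The driver acts in cells that express Olig2, which include the oligodendrocyte lineage, and in their progeny. Each library held 39628926 to 56541132 unique molecular identifiers (UMIs), and 3480 to 6218 nuclei per library were kept, 37257 in all. Of their 37107 distinct barcodes, 150 occurred in 2 or more libraries. Piezo2 in OLs did not fall in the second group: it ran from 393 to 506 CPM in control and from 519 to 573 CPM in the others (log2 fold change 0.25, SE 0.11, adjusted p = 0.55, edgeR). Counts over the whole gene do not test the deleted part, so the group is called the libraries labelled cKO throughout. Olig2 in OLs was 23.9 to 41.6 CPM against 43.8 to 52.4 CPM (log2 fold change 0.60, SE 0.15, adjusted p = 0.26).

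ABCA proteins are large membrane transporters that use ATP to move lipids across or between membranes. ABCA1 loads cholesterol and phospholipid onto apolipoproteins, the step that starts high-density lipoprotein formation, and its gene is a target of the sterol-sensing LXR receptors. ABCA2 is an endosomal and lysosomal protein known for its abundance in OLs, the cells that make the lipid-rich myelin sheath. ABCA3 packs phospholipid into lamellar bodies of the lung. ABCA5 is a lysosomal protein linked to cholesterol handling. ABCA6, ABCA8 and ABCA9 form a close subfamily with ABCA5. Human ABCA8 has been linked to cholesterol export and to sphingomyelin production, and mice have the pair Abca8a and Abca8b in its place. ABCA9 has been linked to macrophages and their response to cholesterol.

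In GRCm39, Abca1 (ENSMUSG00000015243) lies at chr4:53030787-53159900 on the minus strand, Abca2 (ENSMUSG00000026944) at chr2:25318573-25338557 and Abca3 (ENSMUSG00000024130) at chr17:24570895-24629842, both on the plus strand. The other 5 lie side by side on the minus strand of chromosome 11, at chr11:109823016-110228542, in 405527 bases with 0 other protein-coding genes between them. Their order is Abca8b (ENSMUSG00000020620, chr11:109823016-109886691), Abca8a (ENSMUSG00000041828, chr11:109916460-109986869), Abca9 (ENSMUSG00000041797, chr11:109989424-110059429), Abca6 (ENSMUSG00000044749, chr11:110064716-110143249) and Abca5 (ENSMUSG00000018800, chr11:110160195-110228542). Counted antisense RNAs overlap Abca3 (D330041H03Rik) and Abca8b (Gm11697). Abca8a and Abca8b are near-identical in places, so reads could be shared between them. Of the 50-base windows of the canonical Abca8a transcript, 1.86% (105 of 5635) also occurred in that of Abca8b. At 90 bases the share was 0.143% (8 of 5595), and 0.0299% over the gene bodies with introns. The longest run shared by the canonical transcripts is shown as an example of a stretch in which a read could come from either gene. It covers 97 bases of coding sequence in exons 15 and 16 of 39 in both genes, at chr11:109960201-109960275 and chr11:109959673-109959694 in Abca8a and at chr11:109857507-109857581 and chr11:109855836-109855857 in Abca8b.
Shared run: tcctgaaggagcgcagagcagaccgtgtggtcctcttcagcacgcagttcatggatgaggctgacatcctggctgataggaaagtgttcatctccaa

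Levels in CPM are UMIs of a gene divided by all UMIs of the nuclei of a type in a library. They were set side by side between cell types for 1 gene, but not between genes. They depend on the other RNA of a type, and the fits, which rescale the sums, can order close types otherwise. Abca3 was 63.5 CPM in T cells and 61.3 CPM in endothelial cells, where the fit gave a log2 fold change of -0.33. Cell types were named from markers, and the members were left out of the clustering. The 10 types with enough nuclei in the control libraries ranged from 7975 OLs to 43 committed oligodendrocyte precursor cells (committed OPCs). Neurons are 1 of these types, and the paper holds that its neuronal cluster likely came from brain tissue next to the nerve. The neuron levels below are thus not shown to be those of cells of the nerve. Control replicate 3 gave 138 of the 253 control neurons. The sum of 5 OL markers (Mog, Mag, Mobp, St18 and Cldn11) averaged 7887 CPM in control OLs. OL RNA was also found in the other 9 types, where the sum averaged from 713.7 CPM in astrocytes and 798 in OPCs to 3393 in border macrophages, 3723 in T cells and 4762 in committed OPCs. Its part in the levels below was not tested. Neighbours in the order of levels were compared by edgeR contrasts in 1 fit, with p-values adjusted over all genes.

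Abca1, the cholesterol exporter, was highest in border macrophages (246 ± 67.5 CPM, SD, n = 4) and astrocytes (205 ± 26.4), which did not differ by the test (adjusted p = 0.67). Astrocytes stood above fibroblasts (124 ± 12.7, adjusted p = 0.00018), and OLs held 60.9 ± 2.40. Border macrophage sums, whose own 6 markers reached 1405 to 3919 CPM, also held RNA of the 6 microglia markers (889.9 to 1849 CPM) and of 3 B cell markers (5.66 to 139.8 CPM), and their part in the Abca1 and Abca9 levels was not tested. The lowest mean of Abca1 was that of committed OPCs, 6.69 ± 6.57 in 3 libraries. Abca3, the phospholipid transporter of lamellar bodies, had the flattest order: the mean was 106 ± 13.0 CPM in astrocytes, 84.8 ± 23.2 in neurons and 47.0 ± 5.09 in OLs, and no 2 neighbours in its order differed by the test.

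Abca2, the endosomal transporter, had its highest mean in OLs at 380 ± 56.2 CPM and its lowest in microglia at 58.1 ± 22.2. The next mean was 294 ± 109 in T cells, whose sums also held the OL marker RNA given above. The CPM ranges of OLs (322 to 458) and T cells (195 to 401) overlapped, whereas the fit, which scales libraries by TMM, gave a log2 fold change of 1.04 between them (adjusted p = 0.0084). OLs made up 47.5% of the control nuclei and held 69.0% of the Abca2 UMIs. Abca5, the lysosomal member, was highest in neurons (98.0 ± 25.1 CPM), above astrocytes (63.4 ± 8.82, adjusted p = 0.0073), and lowest in microglia (12.6 ± 5.61).

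The 4 remaining members of the chromosome 11 group had different orders. Among these 10 types Abca8b was highest in OPCs (85.6 ± 9.09 CPM) and OLs (74.9 ± 5.84), which did not differ by the test (adjusted p = 0.70), and OLs stood above neurons (48.7 ± 15.5, adjusted p = 0.0055). It was lowest in microglia, at 1.958 ± 2.27. Abca9 ran the other way, with 384 ± 58.3 CPM in microglia, 236 ± 45.6 in border macrophages and 75.8 ± 12.5 in fibroblasts, each step past the test (adjusted p = 0.021 and 7.7e-08), and its lowest mean, 2.84 ± 0.735, in OLs. Microglia and border macrophages are the resident myeloid cells of the nerve and its meninges.

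Among these 10 types Abca8a had its highest means in OLs (39.5 ± 4.40 CPM) and fibroblasts (37.7 ± 10.5), and its lowest in astrocytes (4.27 ± 1.34), but no 2 neighbours in its order differed by the test. Mural nuclei, too few to be ordered, had a higher mean of Abca8a on few UMIs, given under the other observations. The means of border macrophages, T cells and endothelial cells lay between 30.1 and 35.9 CPM with SDs of 17.5 to 50.4. Abca6 had its highest means in OPCs (43.4 ± 11.6 CPM, on 51 UMIs) and OLs (28.5 ± 2.06), but no 2 neighbours in its order differed by the test. The adjusted p by edgeR was 0.14 between OPCs and OLs, and 0.14 between OLs and border macrophages. It was at 0 in all T cell sums, where 3 counts would have been 49.0 to 87.5 CPM in a single library and 16.5 CPM over the 4 together. Each T cell sum held 12 to 21 nuclei. Such limits cover counting error only.

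**Figure D1:**
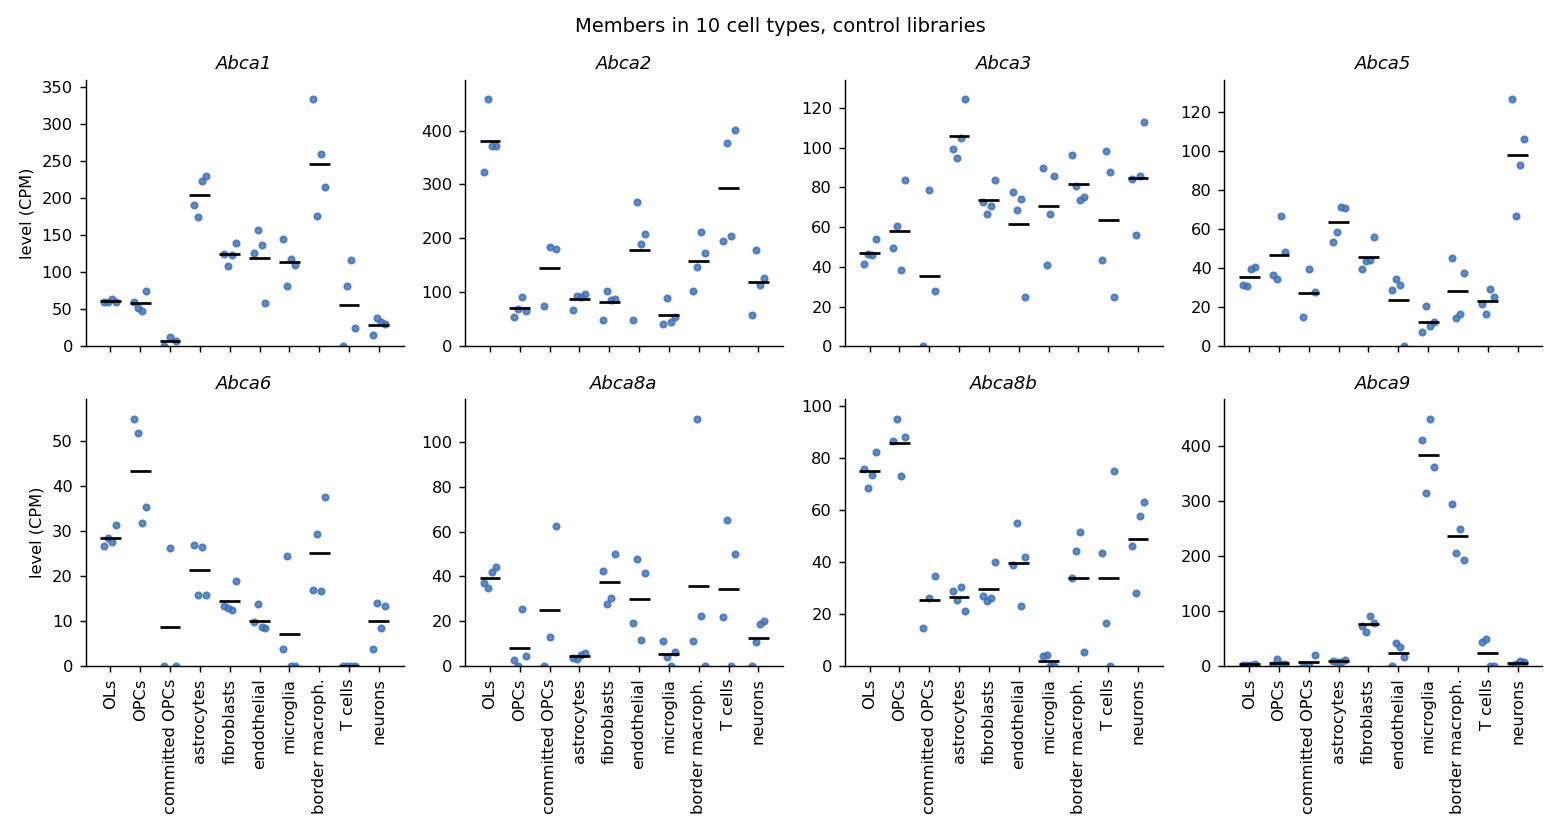
Level of each member in CPM (vertical axis, linear, a separate scale for each gene) in the 10 cell types of the control libraries; each point is 1 library and each bar the mean. Abca2 stands highest in OLs, Abca9 in microglia and border macrophages, and Abca8b in OPCs and OLs.

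Each type was then tested against the mean of the other types in the control libraries, and calls needed both an adjusted p below 0.05 and a log2 fold change above 0.5 in either direction. In OLs 5 of 8 members were called, with 38.7% of all genes called there. Abca6 (log2 fold change 2.04), Abca2 (1.98), Abca8b (1.73) and Abca8a (1.52) were higher and Abca9 (-3.07) lower. In OPCs 5 of 8 were called beside 29.0% of all genes, with Abca6 (2.67), Abca8b (1.87) and Abca5 (0.72) higher and Abca2 (-0.79) and Abca9 (-2.14) lower. In astrocytes 7 of 8 were called beside 39.3%: Abca1 (1.75), Abca6 (1.33), Abca5 (1.04) and Abca3 (0.85) were higher, and Abca2 (-0.61), Abca9 (-1.52) and Abca8a (-2.27) lower. In fibroblasts 4 of 8 were called beside 37.9%, Abca9 (1.92), Abca8a (1.16) and Abca1 (0.90) higher and Abca2 (-0.78) lower.

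In microglia 6 of 8 members were called beside 39.5% of all genes. Abca9 (4.35) and Abca1 (0.61) were higher, and Abca8b (-4.22), Abca8a (-1.98), Abca5 (-1.74) and Abca2 (-1.46) lower. Border macrophages had 2 of 8 beside 21.5%, Abca9 (3.61) and Abca1 (1.88), both higher. Neurons had 5 of 8 beside 36.3%, with Abca5 (1.76), Abca8b (0.92) and Abca3 (0.53) higher and Abca1 (-1.27) and Abca9 (-1.89) lower. The smaller types gave 1 of 8 in endothelial cells (Abca1, 0.80, beside 17.9%), 1 of 8 in committed OPCs (Abca1, -3.68, beside 13.3%) and 0 of 8 in T cells (beside 9.80%).

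A mean over types on the log scale is moved by a type at 0, and Abca6 was at 0 in T cells. Without T cells and committed OPCs, a choice made after seeing the data, Abca6 was still called in OLs (1.10) and OPCs (1.78) with smaller log2 fold changes, but no longer in astrocytes (0.43, adjusted p = 0.089). The other calls of the control libraries lost there were Abca1 in endothelial cells (0.17), fibroblasts (0.26) and microglia (0.10), Abca2 in astrocytes (-0.47), Abca3 in neurons (0.39), Abca5 in OPCs (0.56) and Abca8a in microglia (-1.76).

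With every nucleus thinned to 1000 UMIs, 12 of the 36 control calls were kept, 13 were lost, and 11, those of Abca6, Abca8a and Abca8b, could not be tested because these genes did not pass the filter. Abca5 in fibroblasts (1.34) was called in addition. Abca2 in astrocytes turned from -0.61 to 0.011. Abca9 was no longer called as lower in OLs (-2.24), OPCs (-2.34), astrocytes (-0.76) or neurons (-0.97). Abca2 lost its call in fibroblasts (-0.46) and OPCs (-0.04), and Abca1 in endothelial cells (1.04), neurons (-0.53) and committed OPCs, where 3 sums entered. Abca5 was not called in microglia (-0.75) or OPCs (1.13), nor Abca3 in neurons (0.26).

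The libraries labelled cKO are a separate set of 4 in which the same contrasts were fitted over 9 types. Abca2 (2.17), Abca6 (2.56) and Abca8b (1.70) were higher in OLs and Abca9 (-3.48) lower, 4 of 7 members tested beside 42.8% of all genes. Abca9 stood at 4.22 in microglia, where Abca5 (-2.32), Abca8b (-2.44) and Abca2 (-0.94) were lower, 4 of 7 beside 42.4%, and at 3.54 in border macrophages, where Abca1 (1.76) was higher and Abca5 (-0.94) lower, 3 of 7 beside 28.3%. Astrocytes gave 5 of 7 beside 39.8%, with Abca3 at 0.89 and Abca5 at 0.77. OPCs gave 4 of 7 beside 31.9%, with Abca8b at 1.66. The remaining counts were 3 of 7 in fibroblasts (39.0%), 2 of 7 in neurons (35.8%), 1 of 7 in endothelial cells (23.8%) and 3 of 7 in committed OPCs (18.3%), where Abca6 was at 0 in every sum. Without committed OPCs, Abca6 was no longer called in astrocytes (0.28) nor Abca1 in endothelial cells (0.34). Abca8a did not pass the filter on low counts in this fit. Fitted without that filter, it was higher in OLs (1.38, SE 0.24, adjusted p = 4.6e-08), in fibroblasts (2.08, SE 0.25) and in endothelial cells (1.73, SE 0.49), and lower in astrocytes (-0.96, SE 0.35).

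Inside a cell type, levels over subclusters are a description, since other genes of the same nuclei defined the subclusters. Among 14 fibroblast subclusters, Abca8a averaged 217 CPM in the control libraries in F1, led by Galnt18 and Tenm3, 78.0 CPM in F4, with Ccbe1 and Lamc3 among its leading genes, and 0 CPM in F5. Subclusters F9, F12 and F13 had medians of 6883 to 8855 UMIs per nucleus and shared the leading gene 4930419G24Rik with a cluster of OLs, and F12 also had the OL marker St18. Abca8a there was 40.1, 51.4 and 10.6 CPM. Among 13 astrocyte subclusters, A4, with Slc44a5 and Ltbp1 among its leading genes, had the highest means of Abca1 (334 CPM) and Abca6 (65.9 CPM), where the other 12 ranged from 119 to 265 CPM for Abca1 and from 0 to 26.2 CPM for Abca6. In OLs, Abca2 varied little between subclusters, from 303 to 422 CPM, whereas Abca8b ran from 27.1 to 147 CPM and Abca8a from 8.40 to 87.6 CPM. Both were highest in OL7, with Kit, Nav3 and Synpr among its leading genes, and next in OL1, with Adgrv1, Slc7a15 and Jph4. Abca5 was also highest in OL7, at 73.1 CPM.

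The study's main comparison asks how loss of Piezo2 in the oligodendrocyte lineage changes expression. Abca8a in OLs was 37.1, 34.6, 42.1 and 44.2 CPM in control replicates 1 to 4. In the libraries labelled cKO it was 10.9, 18.3, 14.7 and 16.5 CPM in replicates 10 to 13. All 4 control libraries stood above all 4 others, with no overlap. These values rested on 915 UMIs in 7975 OLs and 501 UMIs in 11219 OLs. How many of all genes had groups without overlap, in OLs or in another type, was not counted. The log2 fold change was -1.39 (SE 0.15, adjusted p = 0.0019, edgeR's quasi-likelihood test), the fifth smallest p of 14471 genes tested. Of these, 12 genes (0.0829%) were called in OLs, and Abca8a was the 1 member among them. It stayed past the threshold in all 14 alternative settings, with log2 fold changes from -1.27 to -1.49, every left-out library included.

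The share of OLs with an Abca8a UMI was 8.38% ± 1.79 in the control libraries and 3.503% ± 0.677 in those labelled cKO (SD, n = 4 each), at medians of 2786 and 2559 UMIs per nucleus. In astrocytes, where the gene was lowest, it was 1.21% and 0.940% at 3018 and 2887 UMIs. With every nucleus thinned to 1000 UMIs, which left out 370 and 360 OLs, the shares in OLs were 3.64% ± 0.312 and 1.44% ± 0.253 (p = 0.0286 by a two-sided exact permutation test, which cannot go lower with these 8 libraries), and 0.346% and 0.394% in astrocytes. The level was lower both per UMI and per nucleus at equal depth.

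The other 7 members were not called in OLs. Abca2 was 322 to 458 CPM in the control libraries and 405 to 523 CPM in the others, overlapping (log2 fold change 0.32, SE 0.12, adjusted p = 0.48). Abca5 had 0.24 (SE 0.12, adjusted p = 0.58) and Abca1 -0.19 (SE 0.10, adjusted p = 0.62). Abca8b, the closest relative of Abca8a, had -0.06 (SE 0.09), with an approximate 95% interval from -0.24 to 0.13. Such intervals use a normal limit on the SE and are narrower than those of edgeR's F test would be. Abca3 had -0.04 (SE 0.10) and Abca6 0.07 (SE 0.12). Abca9 rested on 64 and 75 UMIs, and its difference was not resolved at this depth (-0.26, SE 0.35, approximate 95% interval from -0.95 to 0.43). The median over the 8 members was -0.05 and that over all genes tested 0.02.

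**Figure D2:**
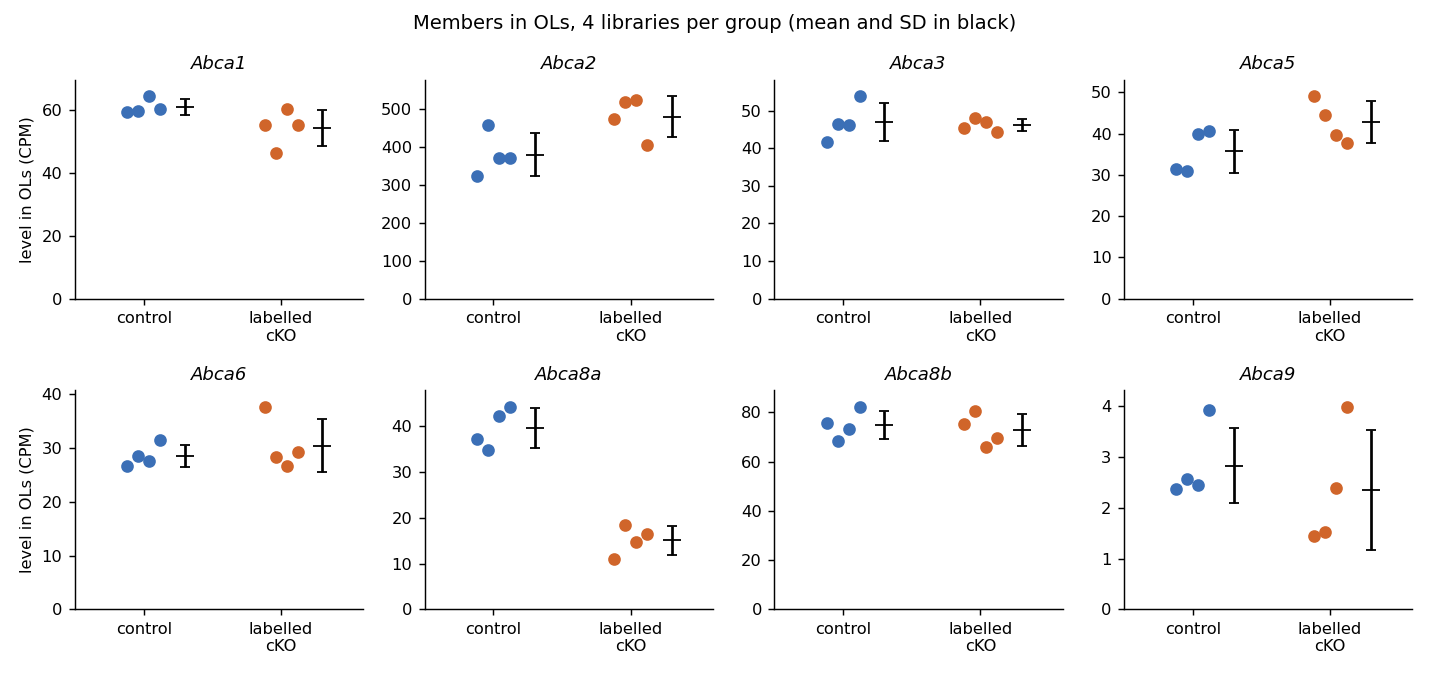
Level of each member in OLs in CPM (vertical axis from 0) by library, for 4 control libraries (blue) and 4 libraries labelled cKO (orange), with the mean and SD in black. The groups are apart for Abca8a, 34.6 to 44.2 against 10.9 to 18.3 CPM, and overlap for the other 7 members.

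No member was called between genotypes in another cell type by edgeR. In fibroblasts (8 of 8 tested, 0% of all genes called), Abca8a was 27.6 to 50.2 CPM against 21.3 to 36.5 (log2 fold change -0.53, SE 0.21, unadjusted p = 0.025, adjusted p = 0.99). Abca6 there was 12.4 to 18.8 CPM against 6.39 to 9.59, without overlap, at -0.94 (SE 0.25, unadjusted p = 0.0019, adjusted p = 0.99). It rested on 101 UMIs in control and 54 in cKO-labelled libraries. Control replicate 4 stood apart at 18.8 CPM, with the other control libraries at 12.4 to 13.4. The share of all genes without overlap in fibroblasts was not counted. In astrocytes (8 of 8 tested, 0% called), Abca8a had -0.13 (SE 0.34), Abca1 -0.27 (SE 0.11) and Abca2 0.30 (SE 0.12), the last 2 with an unadjusted p of 0.033 and 0.029. Astrocyte subclusters held unequal numbers of nuclei in the groups: A4, with the highest mean of Abca1, had 523 control and 269 cKO-labelled nuclei, and A1 had 328 and 1021. Of the 753 nuclei of A6, 685 were from control libraries. Control replicate 1 gave 79.4% of the nuclei of A6. The part of this in the Abca1 value was not tested. Over all genes, DESeq2 called 14 in astrocytes and 4 in fibroblasts where edgeR called 0, with 1060 and 598 genes at an unadjusted p under 0.05 by edgeR.

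The smaller types tested fewer members. OPCs had 6 (0.260% of all genes called), border macrophages 4 (0%), microglia 4 (0.0755%), neurons 4 (0%), endothelial cells 2 (0.187%) and committed OPCs 1 (0%). Abca8a passed the filter in none of them, and its OPC mean of 8.12 CPM in the control libraries rested on 10 UMIs. Summed over all named nuclei, Abca8a had a log2 fold change of -1.03 (SE 0.14, adjusted p = 0.10). There edgeR called 0 of 18367 genes (0%), with 1249 at an unadjusted p under 0.05, whereas DESeq2 called 24 and gave Abca8a -1.02 (adjusted p = 3.8e-07).

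**Figure D3:**
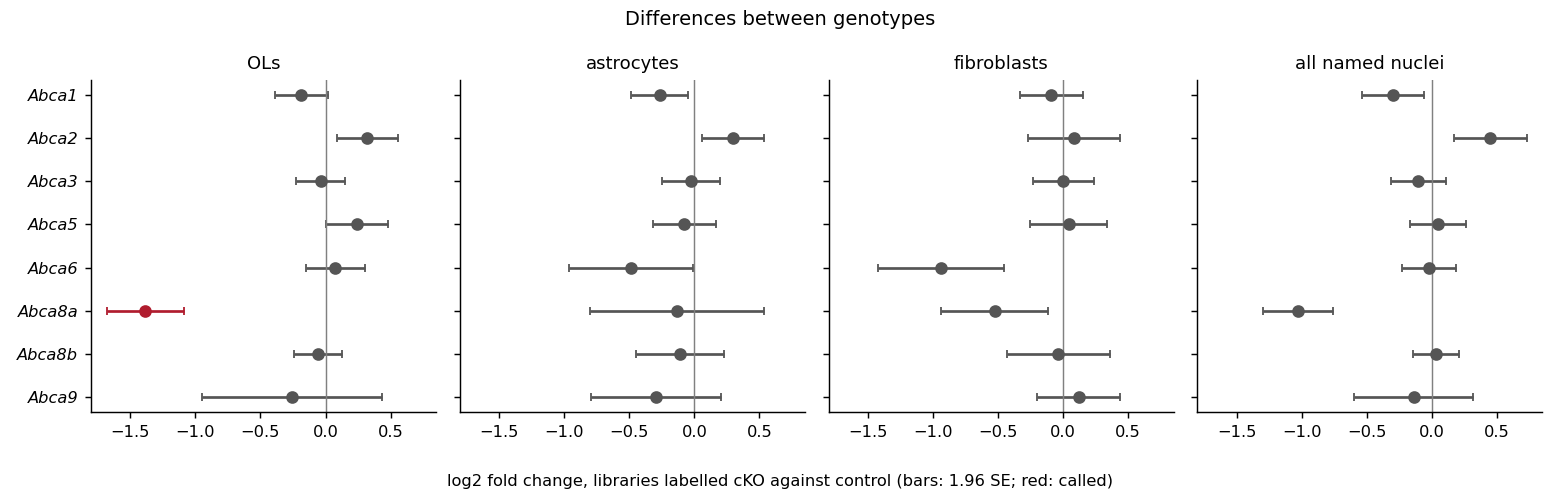
Log2 fold change of each member between the libraries labelled cKO and the control libraries (horizontal axis, bars are approximate 95% intervals by a normal limit on the SE) in OLs, astrocytes, fibroblasts and all named nuclei. The called value, in red, is Abca8a in OLs at -1.39.

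Whether the Abca8a difference in OLs exceeded that in other types was tested as an interaction. The effect in astrocytes minus that in OLs was 1.26 (SE 0.39, unadjusted p = 0.0028, adjusted p = 1.00), and that in fibroblasts minus OLs was 0.85 (SE 0.28, unadjusted p = 0.0045, adjusted p = 1.00). Over all genes 0.0241% and 0.00602% were called by these contrasts, and 0% for microglia minus OLs, where Abca8a had 0.31 (SE 1.21). This fit did not pair the sums that come from the same library. With the library as a block, the contrasts for astrocytes and fibroblasts were not called either. The Abca8a difference is thus not shown to be particular to OLs after adjustment over all 16606 genes.

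Abca8a was also compared within the 12 OL subclusters, a step added after seeing the data. The control mean was above the other in 11 of 12. The libraries did not overlap in 5 of them, OL1, OL2, OL5, OL7 and OL9. All subclusters were cut from the same libraries, so they are not separate replications. Some rested on few Abca8a UMIs: OL4 on 5 in control and 24 in cKO-labelled libraries, and OL11 on 6 and 8. The gene passed the filter on low counts and was tested in 5 of 12, OL1, OL2, OL7, OL8 and OL9, and was called in 3. OL5 and the other 6 were not tested. OL1 had 55.8 to 82.2 CPM in the control libraries and 17.3 to 30.4 CPM in the others (log2 fold change -1.48, SE 0.20, adjusted p = 0.00020, edgeR, with 0.201% of genes called). OL2 had 31.4 to 58.4 against 8.24 to 12.5 CPM (-1.89, SE 0.28, adjusted p = 0.00071, 0.170% called), and OL9 had means of 43.4 ± 10.9 against 14.0 ± 7.90 CPM (-1.67, SE 0.31, adjusted p = 0.017, 0.181% called). In OL7, with the highest levels, 68.8 to 109 CPM stood against 26.6 to 60.5 CPM, and the fitted value did not pass the adjusted test (-0.81, SE 0.21, adjusted p = 0.22, 0.148% called). OL8 had -0.61 (SE 0.34, adjusted p = 0.70, 0.0345% called).

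The subclusters took unequal shares of OLs in the groups: OL7 was 13.2% ± 2.11 of control OLs and 7.02% ± 1.51 of the others, and 79.3% of the nuclei of OL10 came from control replicate 1. With every library given the same subcluster shares, those of all OLs pooled, and OL10 left out because a library had too few of its nuclei, Abca8a was 37.3 ± 2.73 CPM in control and 16.3 ± 2.63 CPM in cKO-labelled libraries (p = 0.0286, two-sided exact permutation test), against 39.5 and 15.1 at the measured shares. This p is the lowest the test can give, reached whenever the groups do not overlap, as they already did not at the measured shares.

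**Figure D4:**
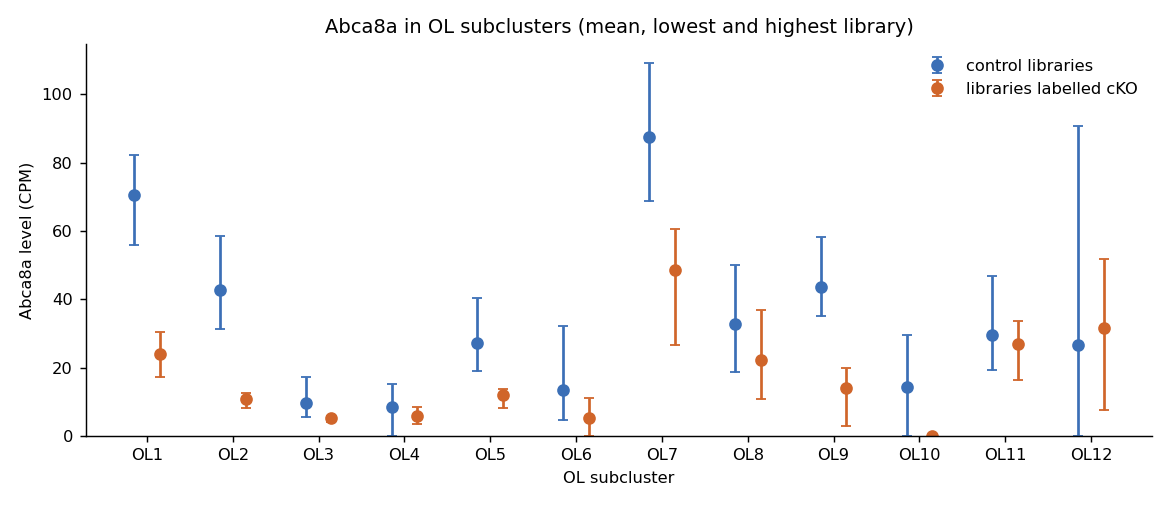
Abca8a level in CPM (vertical axis) in the 12 OL subclusters, for control libraries (blue) and libraries labelled cKO (orange); points are means and bars run from the lowest to the highest library. The control mean is above the other in every subcluster but OL12, and the bars are apart in OL1, OL2, OL5, OL7 and OL9.

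RNA of other cells in the OL sums was measured beside this result. Fibroblast markers, all 8 of which were found, summed to 224 to 276 CPM in control OLs and 192 to 327 CPM in the others, and the 5 OL markers to 7609 to 8243 against 7021 to 8478 CPM. The 4 haemoglobin genes were higher in control OLs, at 1365 to 2732 against 570 to 1447 CPM. Pituitary hormone genes were at 52.3 to 1033 against 12.2 to 38.1 CPM. Microglia markers were lower in control OLs, at 109.6 to 119 against 122 to 146 CPM, as were retina markers, at 3.93 to 8.12 against 8.13 to 13.9 CPM, both without overlap. Their part in the result was not tested. Without control replicate 3, the highest in pituitary RNA, Abca8a in OLs had a log2 fold change of -1.36.

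In empty droplets of the same libraries, which sample RNA released from all cells, Abca8a was 21.5 ± 3.45 CPM in the control libraries and 11.4 ± 1.06 in the others, again without overlap (p = 0.0286, two-sided exact permutation test, not adjusted over the 8 members). With the expected free RNA subtracted, the log2 fold change in OLs was -1.39. Abca1 (54.6 ± 4.38 against 45.6 ± 4.31 CPM) and Abca6 (9.04 ± 0.469 against 8.15 ± 0.316 CPM) reached the same exact p in empty droplets. How many of all genes would reach it there was not counted. Abca2, at 251 ± 22.6 against 306 ± 34.9 CPM, had an exact p = 0.057, and the exact p of the other 4 members ranged from 0.31 to 0.66.

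Piezo2 is expressed in a part of OLs, and the study compared Piezo2+ with Piezo2- OLs. In the control libraries 4353 OLs had a Piezo2 UMI and 3622 had none. The share with a UMI was 55.4% ± 4.54 in OLs, 5.59% ± 0.854 in astrocytes and 3.98% ± 1.48 in OPCs (SD, n = 4), at medians of 2786, 3018 and 3264 UMIs per nucleus. Thinned to 1000 UMIs it was 31.2% in OLs and 2.12% in astrocytes, so whether an OL counted as Piezo2+ also depended on its depth. Abca8a was 28.7, 29.9, 31.2 and 37.2 CPM in Piezo2+ OLs of replicates 1 to 4 and 51.1, 42.2, 58.0 and 61.1 CPM in Piezo2- OLs of the same replicates. It was lower in Piezo2+ OLs in 4 of 4 libraries, and the ranges did not overlap. How many of all genes went the same way in 4 of 4 libraries, or had no overlap, was not counted. The log2 fold change of Abca8a was -0.72 (SE 0.14, adjusted p = 0.041, edgeR), and 79 of 12325 genes (0.641%) were called. With the library as a block, the pairing of both sums of a library, it was -0.73 (adjusted p = 9.4e-11) and 430 genes were called.

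In the fit without the block, the call was lost when any 1 library was left out, at log2 fold changes from -0.66 to -0.80 and adjusted p from 0.12 to 0.37. Piezo2+ OLs had more UMIs, with library medians of 2620 to 3369 against 1851 to 2515, and the part of depth in the difference was not tested. With the counts thinned to 1000 UMIs per nucleus the value was -0.95 (adjusted p = 0.030, edgeR). Piezo2 status was still read from the unthinned counts there, so depth still entered the split of OLs. The 6 other members tested were not called: Abca8b was 69.7 ± 7.06 CPM against 84.0 ± 6.00 (-0.24, SE 0.11, adjusted p = 0.55), lower in Piezo2+ OLs of 4 of 4 libraries, and Abca2 372 ± 56.5 against 395 ± 56.4 (-0.06, SE 0.12), also lower in 4 of 4. These counts of libraries were not set beside those of all genes either. With the block, Abca8b had -0.25 (SE 0.08, adjusted p = 0.015), short of the fold needed for a call, and Abca2 -0.07 (SE 0.04, adjusted p = 0.32). Among the subclusters, OL3, with the most Piezo2 (974 CPM), had 9.61 CPM of Abca8a, and OL1, with the least (219 CPM), had 70.5. The order was not kept by all: OL11 had 828 CPM of Piezo2 and 29.5 of Abca8a, OL4 had 454 and 8.40, and OL7 had 391 and 87.6.

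**Figure D5:**
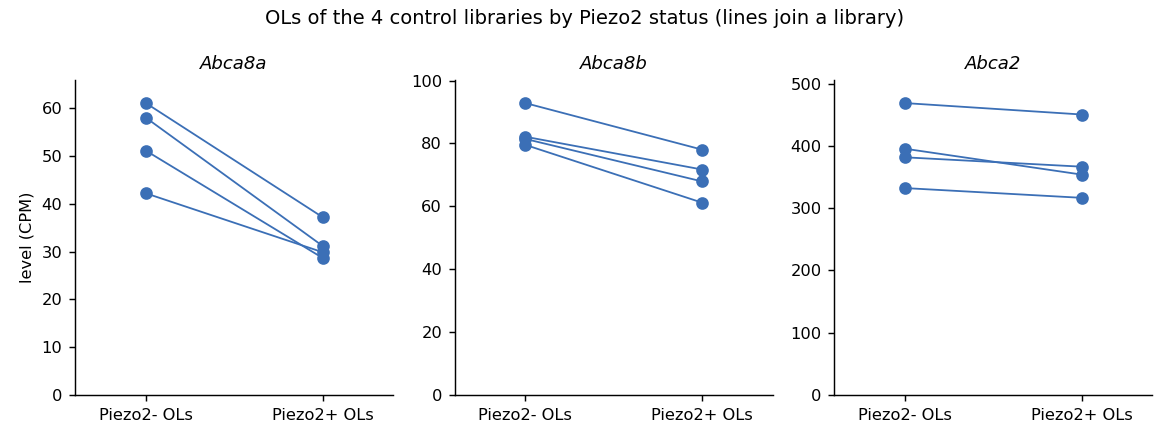
Levels of Abca8a, Abca8b and Abca2 in CPM (vertical axis from 0) in Piezo2- and Piezo2+ OLs of the 4 control libraries; each line joins the 2 values of 1 library. Abca8a falls in each library, from 42.2 to 61.1 CPM in Piezo2- OLs to 28.7 to 37.2 CPM in Piezo2+ OLs.

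Lists of other lipid genes are described by their counts and medians between genotypes in OLs, where 0.0829% of all genes were called and the median over all genes was 0.02. At that share a count of 0 called is no result about a list of this size. Of the 8 other ABCA genes, 1 was tested, Abca7, at a log2 fold change of 0.19 (SE 0.12). Of 18 genes of sterol efflux and LXR signalling, 17 were tested and 0 called, with a median of 0.07. Scarb1, a receptor for high-density lipoprotein, had -0.42 (SE 0.16, unadjusted p = 0.023, adjusted p = 0.50), Nceh1, a cholesterol ester hydrolase, -0.19 (SE 0.10), and Apoe, the main apolipoprotein of the nervous system, 0.28 (SE 0.19). Of 23 genes of sphingolipid and myelin lipid metabolism, 22 were tested and 0 called, with a median of -0.01. Cers2, the ceramide synthase for very long chains, had 0.29 (SE 0.13, unadjusted p = 0.046), Elovl1, a fatty acid elongase, 0.20 (SE 0.10), and Sgms2, a sphingomyelin synthase, 0.30 (SE 0.15). In Piezo2+ against Piezo2- OLs 0 of 16 and 0 of 22 genes tested in these lists were called beside 0.641% of all genes, which again says nothing of the lists. Scarb1 there had -0.92 (SE 0.21, adjusted p = 0.086).

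The genes around the chromosome 11 group were not called between genotypes in OLs, where 0.0829% of all genes were. Of the 5 nearest protein-coding genes on each side, 8 were tested, from -0.21 (SE 0.17) for Kcnj2, a potassium channel, to 0.30 (SE 0.16) for Map2k6, a kinase of the p38 pathway. Between these lay Fam20a (-0.14), Arsg (-0.12), Wipi1 (-0.06), Slc39a11 (0.04), Prkar1a (0.11) and Sox9 (0.18), while 1700012B07Rik and Kcnj16 were not tested.

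The genes most like each member were found by Pearson's r of mean log2(CPM + 1) over the 10 cell types of the control libraries, among 15719 genes. The points share libraries and differ in depth, and the r are descriptions. Abca8a was most like Rnf220 (r = 0.955), Plekhg3 (0.951) and Hhip (0.943), all highest in OLs. Abca8b was most like Ptprk (0.951), Cttnbp2 (0.928) and 6030443J06Rik (0.922), and Abca2 like Xrcc6 (0.978), Ccp110 (0.968) and Zfp280c (0.967). Abca9 was most like Zfx (0.959), Pacsin2 (0.955) and Zfp992 (0.951), all highest in microglia. Abca5 was most like Cplane1 (0.983), Cnksr2 (0.976) and Galnt17 (0.962), all highest in neurons, and Abca1 like Blzf1 (0.963), Elof1 (0.955) and Gpx1 (0.943). For Abca3 they were Zc3h14 (0.931), Morn2 (0.913) and Dalrd3 (0.913), and for Abca6 Mcrs1 (0.923), Rpap1 (0.922) and Slc22a15 (0.916). Between members, r ran from -0.71 for Abca8b with Abca9 to 0.73 for Abca1 with Abca3. The genes most like Abca8a were not called between genotypes in OLs: Rnf220 had -0.23 (SE 0.12), Plekhg3 -0.08 (SE 0.09) and Hhip -0.04 (SE 0.10).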

How the data were processed

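Single-nucleus RNA libraries of the ON (4 control, 4 labelled cKO) were made with 10x 3-prime chemistry. The authors counted UMIs with Cell Ranger 7.0.0 on GRCm39 (submitters' processing notes and methods). The deposited values are raw counts of UMIs per gene and barcode, with every barcode kept. Ambient removal and nucleus filters of the study are not part of them.

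Nuclei were called with the OrdMag threshold or, from 500 UMIs, against the empty-droplet profile (false discovery rate 0.01). Nuclei with under 200 genes or over 5% mitochondrial counts were removed, as were values over 5 median absolute deviations from the median (3 for the mitochondrial share) and the nuclei with the highest Scrublet scores, 0.8% per 1000 nuclei. Leiden clustering (scanpy 1.11.5, leidenalg 0.10.2, 3000 variable genes without the members, 30 components, 15 neighbours, resolution 3) gave clusters named by at least 3 markers of a list. The naming rules were chosen with the clusters in view, and 7.71% of nuclei in mixed or unclear clusters stayed unnamed. Mural cells gave too few sums.

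Counts were summed per library and type (at least 10 nuclei and 1000 counts, 3 sums per group) and tested with edgeR 4.0.16 (TMM, filterByExpr, glmQLFit, glmQLFTest) in R 4.3.3, with DESeq2 1.42.0 as an alternative. P-values were Benjamini-Hochberg adjusted over all genes of a comparison, and SEs derived from F. A gene was called at adjusted p under 0.05 and absolute log2 fold change over 0.5. On data simulated for the genotype comparison in OLs with 14471 genes, 83.7% of 2-fold and 99.1% of 4-fold changes were recovered, with 11 false calls. The number of libraries and nuclei limits precision. Each library pooled the ONs of 3 mice, so p-values measure the spread between pools, not between mice.

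Members and lists were chosen with earlier results of these data known. Named were all members, the 3 genes most like each, of each list the called genes or else the 3 with the smallest p, and the 5 neighbours on each side. The 2 sums of a library in the Piezo2 comparison are paired because they come from the same library. Genotype replicates share no numbers. Alternatives were DESeq2 size factors, the DESeq2 Wald test, no filter on low counts, thinning to 1000 UMIs, subtraction of free RNA, removal of 2 times as many doublets, the replicate block and each library left out. Tests within OL subclusters, the same subcluster shares in every library, the fit of larger types and some settings of the interaction were chosen after seeing the data. Gene positions and transcripts are from GENCODE on GRCm39. Upstream sequences and 1 of the OL markers are not reported here.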

Additional observations from a re-analysis of the deposited data

Results flagged for a closer look

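In 94 groups of 4 libraries with at least 40 UMIs of a member, the library farthest from the rest was checked by the ratio of its gap to the range of the group (Dixon's 95% limit), and 4 stood apart. Chance alone flags about 1 in 20 such groups. Abca3 in astrocytes was 91.1 CPM in cKO replicate 13, with the others at 109 to 110. Abca6 in fibroblasts was 18.8 CPM in control replicate 4, with the others at 12.4 to 13.4. Abca8b in fibroblasts was 39.96 CPM in control replicate 4, with the others at 25.2 to 26.8. Abca9 in OLs was 3.93 CPM in control replicate 4, with the others at 2.38 to 2.57, on 15 to 17 UMIs per library. None of these is a called difference between genotypes, and Abca8a in OLs was not among them.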

How the results depend on the processing

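Abca8a in OLs kept its direction and call in all 14 alternatives. Its value over all named nuclei was past the threshold with DESeq2 alone (-1.02). In the Piezo2 comparison the replicate block, with the library as the block, changed no member's call (Abca8a -0.73) but raised the genes called from 79 to 430. There 181 genes were called with no filter, 39 after thinning and 2 to 29 with 1 library left out and no block, where members called fell from 1 to 0 and Abca8a ranged from -0.80 to -0.66. Genes called between genotypes in OLs were 12, 43 with no filter and 58 with DESeq2. Member calls over cell types fell from 36 to 13 (control) and from 29 to 15 (labelled cKO) after thinning to 1000 UMIs, where 47 of 65 could still be tested, and Abca2 in control astrocytes moved from -0.61 to 0.011. The library block kept all 65 of these calls, DESeq2 size factors 65 of 65, free RNA subtraction 64 of 65, no filter 61 of 65, more doublets removed 56 of 61, and the larger types alone, an alternative chosen after seeing the data, 51 of 61. Leaving out control replicate 3 lost 11 of 36: Abca9 in astrocytes, neurons, OLs and OPCs, Abca8a and Abca1 in microglia, Abca1 in endothelial cells, Abca3 and Abca8b in neurons, Abca5 in OPCs and Abca6 in astrocytes. Each other left-out library lost 3 or 4. The cause was not tested.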

Other observations

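The 2873 nuclei of unnamed clusters entered no comparison. Abca8a there was 38.7 ± 10.9 CPM in control and 20.8 ± 7.02 CPM in cKO-labelled libraries (SD, n = 4 each), and Abca8b 57.3 ± 5.33 and 55.4 ± 9.45. Mural nuclei, with 24 in 2 control libraries large enough to sum, were not among the 10 types ordered by level. They held 11 UMIs of Abca8a, at 122 and 253 CPM, and 7 of Abca8b, at 81.2 and 158 CPM, with means (187 and 119.7 CPM) above those of the 10 types. Abca9 had 9 UMIs there, at 63.3 and 284 CPM, with a mean of 174 CPM, between border macrophages and fibroblasts. None of these levels was tested.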
